A study of Homo sapiens with 20 samples.

Results

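In human HEK293 cells, the RNA of 66 genes was close to absent from the chromatin of wild type (wt) cells and present in the chromatin of both shDicer and shAgo2 cells. They were chosen from the measured values: below 0.1 CPM (a gene's estimated counts per 1000000 counts of its library) in both wt libraries and at least 1 CPM in all 4 libraries of shDicer and shAgo2. They were 66 of 57087 genes in the files (0.116%), and 66 of the 18966 genes that were below 0.1 CPM in both wt libraries (0.348%). HEK293 is a cell line of human embryonic kidney origin. Chromatin-associated RNA sequencing (chrRNA-seq) compared wt HEK293 (2 libraries) with shDicer (2) and shAgo2 (2), which are stable recombinant T-REx lines whose short hairpin RNA was switched on with 3 µg/ml doxycycline for 72 h, and with shDrosha (2), in which the hairpin came from a transfected plasmid. The labels give no doxycycline for the wt and shDrosha chromatin libraries. mRNA-seq compared wt HEK293T (3) with HEK293 2B shDicer (3), all after 7 days of 3 µg/ml doxycycline. Because each stable knockdown was 1 line beside another line as wt, knockdown and line cannot be told apart here. Nothing in the sources used here says that replicates were separate cultures, so p-values measure the spread between these libraries, which may be technical.

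Dicer cuts double-stranded precursors into small RNAs, Ago2 is the Argonaute protein that carries such small RNAs and can cut their targets, and Drosha acts earlier, releasing miRNA precursors in the nucleus. RNA that is still attached to chromatin is largely nascent, so a gene seen there has been transcribed whether or not its RNA is later exported. Mature RNA is read by mRNA-seq. Genes that are silent in one cell type are often packed in repressive chromatin or carry DNA methylation at their promoters, and pseudogenes and long non-coding RNAs are frequent among them.

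Depth ranged from 17484067 to 21553760 estimated counts in the chrRNA-seq libraries and from 10216430 to 17215978 in mRNA-seq. In the wt chromatin libraries 3 counts were worth 0.165 and 0.172 CPM. DICER1 read 110 and 113 CPM in wt, 103 and 100 CPM in shDicer and 192 and 200 CPM in shAgo2 chromatin. No test of DICER1 in shDicer against wt was made in chromatin, so its chromatin RNA alone did not check the shDicer label. DICER1 fell in shDicer mRNA-seq (log2 fold change -1.49 ± 0.08 (SE), adjusted p = 1.28e-07). AGO2 read 222 and 231 CPM in wt and 153 and 149 CPM in shAgo2 chromatin. DROSHA read 135 and 139 CPM in wt and 152 and 145 CPM in the libraries labelled shDrosha (log2 fold change 0.07 ± 0.08 (SE), adjusted p = 0.697), so the chromatin RNA of the targeted gene did not check that label. The study also reports qRT-PCR of the targeted transcripts on samples that went into chrRNA-seq, and western blots of the Dicer, Drosha and Ago2 knockdowns. Neither is analysed here. Of the marker genes of the HEK293 lineage, all 6 were detected in every group, with a summed level of 79.1 to 83.9 CPM in wt, 179 to 243 CPM in shDicer and 137 to 141 CPM in shAgo2. Within this list NEFL read 11 CPM in wt, 150 CPM in shDicer and 84.7 CPM in shAgo2, and NEFM 22.4, 2.38 and 0.873 CPM. The summed level of 5 epithelial markers was 61.9 to 66 CPM in wt, 60.9 to 62.6 CPM in the libraries labelled shDrosha, 190 to 205 CPM in shDicer and 167 to 168 CPM in shAgo2. KRT19, which is a member, was the 1 gene of the 5 at 0 in both wt libraries. Of 6 blood markers, HBG1 was at 0 in every library and the summed level was 9.26 to 9.48 CPM in wt against 3.17 to 4.25 CPM in shDicer and shAgo2. Fibroblast markers summed to 31.2 to 32.6 CPM in wt and 36.3 to 46.8 CPM in shDicer and shAgo2, endothelial markers to 16.6 to 18 and 19.2 to 23.2 CPM, and germ cell markers to 25.6 to 27.3 and 32.4 to 35.3 CPM. The part of these markers in the results was not tested, and in bulk libraries fewer cells of a type and less RNA per cell cannot be told apart.

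The rule chose the wt silence and the knockdown level, so both are given as descriptions. The highest wt level of any member was 0.0656 CPM, or 1.15 estimated counts, and 43 of the 66 had no count in either wt library. The mean over the 4 shDicer and shAgo2 libraries ranged from 1.18 to 64.1 CPM with a median of 3.46 CPM. It was above 20 CPM for 7 members and below 5 CPM for 43. KAAG1 had the highest wt level inside the limit (0.0656 CPM), followed by RPSAP41 (0.0654 CPM) and RPL29P11 (0.063 CPM). FEZF1, PCP4L1 and ENSG00000264843 fell just outside it at 0.11 CPM. HLA-W (1.02 CPM), TPM3P6 (1.05 CPM) and ENSG00000236601 (1.08 CPM) had the lowest knockdown values inside the limit, and HLA-H (0.985 CPM), ENSG00000284644 (0.971 CPM) and HLA-DPA1 (0.955 CPM) the highest outside.

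**Figure D1:**
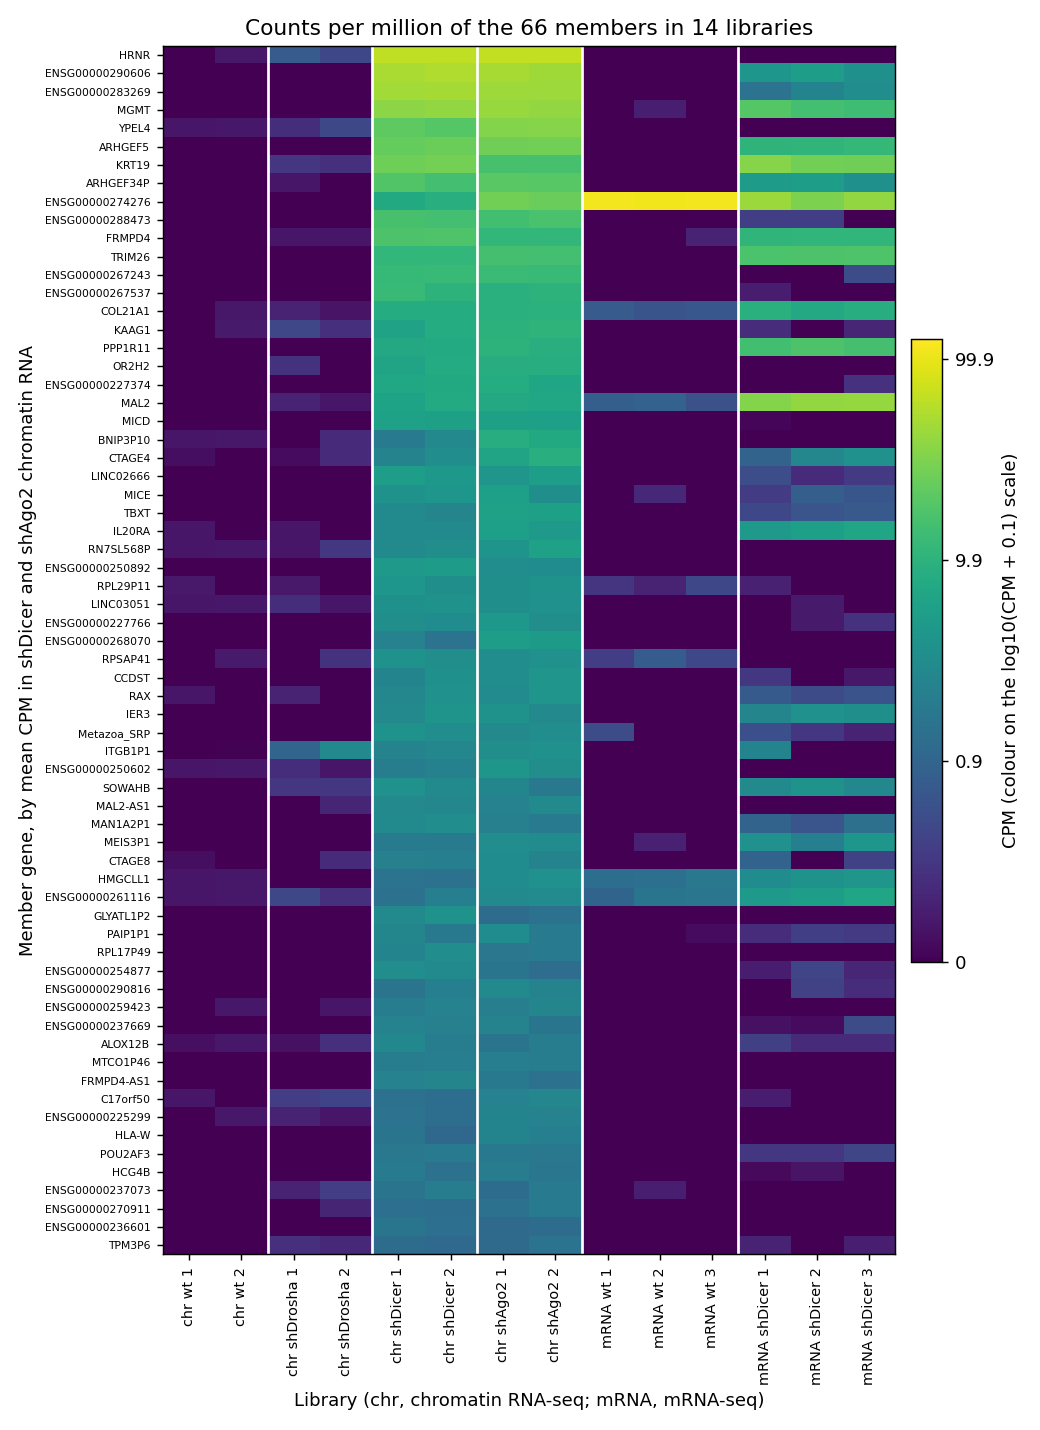
Heat map of CPM for the 66 members (rows, by mean over the 4 shDicer and shAgo2 chromatin libraries) in 14 libraries (columns), with colour on the log10(CPM + 0.1) scale. The rule set the contrast between the wt, shDicer and shAgo2 chromatin columns, while the columns of shDrosha and mRNA-seq were not used to choose the genes.

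By biotype, 22 members were protein-coding (33.3%, against 34.4% of all genes in the files), 18 were long non-coding RNAs (27.3%, against 26.3%), 23 were pseudogenes, 2 were misc_RNA and 1 was annotated as an artifact. Among the pseudogenes, 13 were processed (19.7% of the members, against 17.7% of all genes), 7 unprocessed (10.6%, against 4.41%) and 3 transcribed unprocessed (4.55%, against 1.49%). Of the families listed for comparison, collagens and laminins gave 1 member among 71 genes (COL21A1) and olfactory receptors 1 among 750 (OR2H2). There was no member among 751 zinc finger genes, 61 clustered protocadherins, 42 HOX genes, 280 ion channels, 513 solute carriers, 146 melanoma and testis antigens and 127 histones. The 18 germ cell, 21 imprinted, 21 interferon response and 11 pluripotency genes gave none either. Of the olfactory receptors 607, and of the melanoma and testis antigens 110, were below 0.1 CPM in both wt libraries.

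Promoters are shown because leading members differ in CpG content, the dinucleotide that DNA methylation acts on. DNA methylation was not measured in these libraries, and its part in the wt silence was not tested. RefSeq holds a promoter of 300 bases (250 before and 50 after the start, GRCh38.p14) for 22 of the 66 members. MGMT, which encodes the protein that removes alkyl groups from guanine in DNA, has 45 CpG in its window and a GC content of 78.7%. HRNR, which encodes hornerin, a protein of the cornified envelope of skin, has 1 CpG and a GC content of 48.7%. The windows are chr10:129466991-129467290 on the plus strand and chr1:152224144-152224443 on the minus strand, printed from 5′ to 3′ with each CpG in capitals.
MGMT: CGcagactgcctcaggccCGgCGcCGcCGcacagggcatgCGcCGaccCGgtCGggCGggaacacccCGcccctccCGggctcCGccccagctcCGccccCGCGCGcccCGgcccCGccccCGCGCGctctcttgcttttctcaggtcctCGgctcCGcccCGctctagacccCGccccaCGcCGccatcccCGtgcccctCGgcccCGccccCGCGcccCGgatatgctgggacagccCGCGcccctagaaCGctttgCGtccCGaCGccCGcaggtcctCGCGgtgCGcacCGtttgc
HRNR: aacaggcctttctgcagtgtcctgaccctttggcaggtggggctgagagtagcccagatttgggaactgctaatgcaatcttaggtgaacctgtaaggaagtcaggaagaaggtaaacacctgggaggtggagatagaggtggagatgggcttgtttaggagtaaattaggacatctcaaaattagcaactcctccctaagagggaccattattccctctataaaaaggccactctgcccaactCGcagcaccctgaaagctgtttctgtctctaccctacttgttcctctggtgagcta
Of the 22 member windows, 14 had a GC content above 50% and an observed over expected CpG ratio above 0.6 (63.6%, against 46.8% of 27305 promoters). Motifs were searched on both strands as plain letters. TATAAA was found in 22.7% of the member windows and 12% of all, GGGCGG in 45.5% and 44.6%, CCAAT in 18.2% and 35.7%, CACGTG in 13.6% and 7.43%, and TGANTCA in 4.55% and 7.76%. With 22 windows these shares are descriptions only, and a missing match says only that the letters are not in the window.

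HRNR was the highest member in chromatin and was not detected in mRNA-seq. Its RNA read 0 and 0.0572 CPM in wt, 62.9 and 62.6 CPM in shDicer, and 66.2 and 64.7 CPM in shAgo2. All 6 mRNA-seq libraries were at 0, where 3 counts were worth 0.174 to 0.294 CPM. The gene lies on chromosome 1 (152212076 to 152224193, minus strand) beside CCDST, a long non-coding RNA and also a member, which overlaps FLG-AS1 on the same strand (mean 2.95 CPM in shDicer and 3.7 CPM in shAgo2 chromatin). FLG, which encodes the skin barrier protein filaggrin in the same gene cluster, missed the wt limit and showed the same levels, at 0.0549 and 0.114 CPM in wt, 66.3 and 72.6 CPM in shDicer, and 66.7 and 67.4 CPM in shAgo2. FLG mRNA-seq values did not exceed 0.0729 CPM. The antisense gene FLG-AS1 spans HRNR on the opposite strand and was on in every chromatin group (24.6 CPM in wt, 41.1 in shDicer, 42.2 in shAgo2). ALOX12B, a lipoxygenase of the skin barrier, read 2.7 and 1.98 CPM in shDicer and 1.47 and 1.97 CPM in shAgo2, with at most 0.282 CPM in mRNA-seq.

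YPEL4, of the yippee-like family of small zinc-binding proteins, resembled HRNR in being absent from mRNA-seq. Its values were 0.0549 and 0.0572 CPM in wt, 21.4 and 19.3 CPM in shDicer, and 33.4 and 34.2 CPM in shAgo2. No read was assigned to it in any of the 6 mRNA-seq libraries. OR2H2, an olfactory receptor gene, likewise rested at 0 in all 6 while reading 6.45 to 8.48 CPM across the 4 shDicer and shAgo2 chromatin libraries. YPEL4 and OR2H2 each lie inside a gene on the opposite strand that was on in wt chromatin. For YPEL4 it is MIR130AHG (31.5 CPM in wt, 47.1 CPM in shDicer and 47.1 CPM in shAgo2). The part of these host genes in the chromatin values was not tested.

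MGMT was without a count in both wt chromatin libraries and read 36.6 and 39.8 CPM in shDicer and 41.2 and 39.3 CPM in shAgo2, at least 229-fold above the level of 3 counts in the shallower wt library. In mRNA-seq it read 0, 0.0842 and 0 CPM in wt and 19.2, 14.8 and 13.6 CPM in shDicer, so the groups did not overlap and the rise passed the test (adjusted p = 7.28e-08). The gene lies on chromosome 10 (129467190 to 129770983, plus strand). Its last part overlaps ENSG00000227374 (7.36 CPM in both shDicer and shAgo2 chromatin), a member whose 31-base subsequences are 94.2% shared with MGMT, and the long non-coding member LINC02666 lies within 100 kb (4.89 CPM in shDicer and 4.61 CPM in shAgo2 chromatin). Both were at 0 in wt and in the libraries labelled shDrosha.

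KRT19, an acidic keratin of simple epithelia on chromosome 17 (41523617 to 41528308), was at 0 in both wt libraries, at 26.3 and 27.9 CPM in shDicer, and at 15.5 and 15.7 CPM in shAgo2. In mRNA-seq the 3 wt libraries were at 0 and shDicer read 34.3, 27.5 and 26.7 CPM, at least 101-fold above the level of 3 counts in the shallowest wt library (adjusted p = 8.2e-08). Of the other 4 epithelial markers, none silent in wt, 3 rose in mRNA-seq: EPCAM by 6.58 ± 0.14 (log2, SE), KRT18 by 1.81 ± 0.09 and KRT8 by 1.51 ± 0.15, with adjusted p of 5.1e-10, 7.8e-08 and 1.24e-05. CDH1, the fourth such gene of the marker list, read 1.76 CPM in wt and 2.34 CPM in shDicer mRNA-seq. MAL2, a membrane protein of transcytosis in polarised epithelial cells, was at 0 in chromatin of wt and at 6.21 to 7.77 CPM in the 4 shDicer and shAgo2 libraries. Its mRNA-seq values were 0.759, 0.842 and 0.489 CPM in wt and 33.8, 40 and 40.7 CPM in shDicer (log2 fold change 5.74 ± 0.19 (SE), adjusted p = 3.75e-09). The antisense member MAL2-AS1 read 2.68 CPM in shDicer and 2.57 CPM in shAgo2 chromatin and 0 in all mRNA-seq libraries.

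Among genes of signalling and the cytoskeleton, ARHGEF5, a guanine nucleotide exchange factor for small GTPases, read 0 in wt, 23.3 and 25.0 CPM in shDicer, and 26.9 and 27.3 CPM in shAgo2. In mRNA-seq it went from 0 in all 3 wt libraries to 10.3, 10.6 and 11.5 CPM (at least 36.7-fold, adjusted p = 2.15e-07). FRMPD4, a scaffold of neuronal synapses, read 0 in wt chromatin, 17.0 and 17.8 CPM in shDicer and 11.2 and 11.1 CPM in shAgo2. Its mRNA-seq values were 0, 0 and 0.0979 CPM in wt and 10.5, 10.7 and 11 CPM in shDicer (adjusted p = 6.61e-08). IL20RA, an interleukin receptor chain, was at 2.94 and 2.98 CPM in shDicer and 5.48 and 4.53 CPM in shAgo2 chromatin, and rose in mRNA-seq from 0 to 4.59, 5.58 and 6.62 CPM (at least 19.1-fold, adjusted p = 2.26e-06). COL21A1, a fibril-associated collagen chain, read 8.15 and 8.22 CPM in shDicer and 9.22 and 9.41 CPM in shAgo2 chromatin. It was already present in wt mRNA-seq at 0.667, 0.542 and 0.587 CPM and rose to 9.11, 7.23 and 8.47 CPM (log2 fold change 3.78 ± 0.23 (SE), adjusted p = 3.07e-07). Of the 36 collagen and laminin genes tested in mRNA-seq, 15 rose and 3 fell, against 15.6% and 14.2% of all 15090 genes tested. SOWAHB, an ankyrin repeat protein gene, read 3.6 and 2.93 CPM in shDicer and 2.55 and 1.68 CPM in shAgo2 chromatin, and 2.92, 3.84 and 2.67 CPM in shDicer mRNA-seq against 0 in wt (at least 10.7-fold, adjusted p = 1.28e-05).

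TBXT (brachyury), the T-box factor of mesoderm and notochord, read 2.84 and 2.45 CPM in shDicer and 5.89 and 5.65 CPM in shAgo2 chromatin, with 0.365 to 0.639 CPM in shDicer mRNA-seq. RAX, a homeobox factor of the eye field, read 2.64 and 3.57 CPM in shDicer and 3.06 and 4.02 CPM in shAgo2 chromatin, with 0.418 to 0.656 CPM in shDicer mRNA-seq. POU2AF3, a coactivator of POU factors, read 1.66 and 1.76 CPM in shDicer and 1.67 and 1.63 CPM in shAgo2 chromatin, with 0.209 to 0.348 CPM in shDicer mRNA-seq. TBXT, RAX and POU2AF3 were at 0 in all 3 wt mRNA-seq libraries and too low there to be tested, while an entry of the same length as a TBXT transcript was on in wt, as given with the chromosome 6 run.

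**Figure D2:**
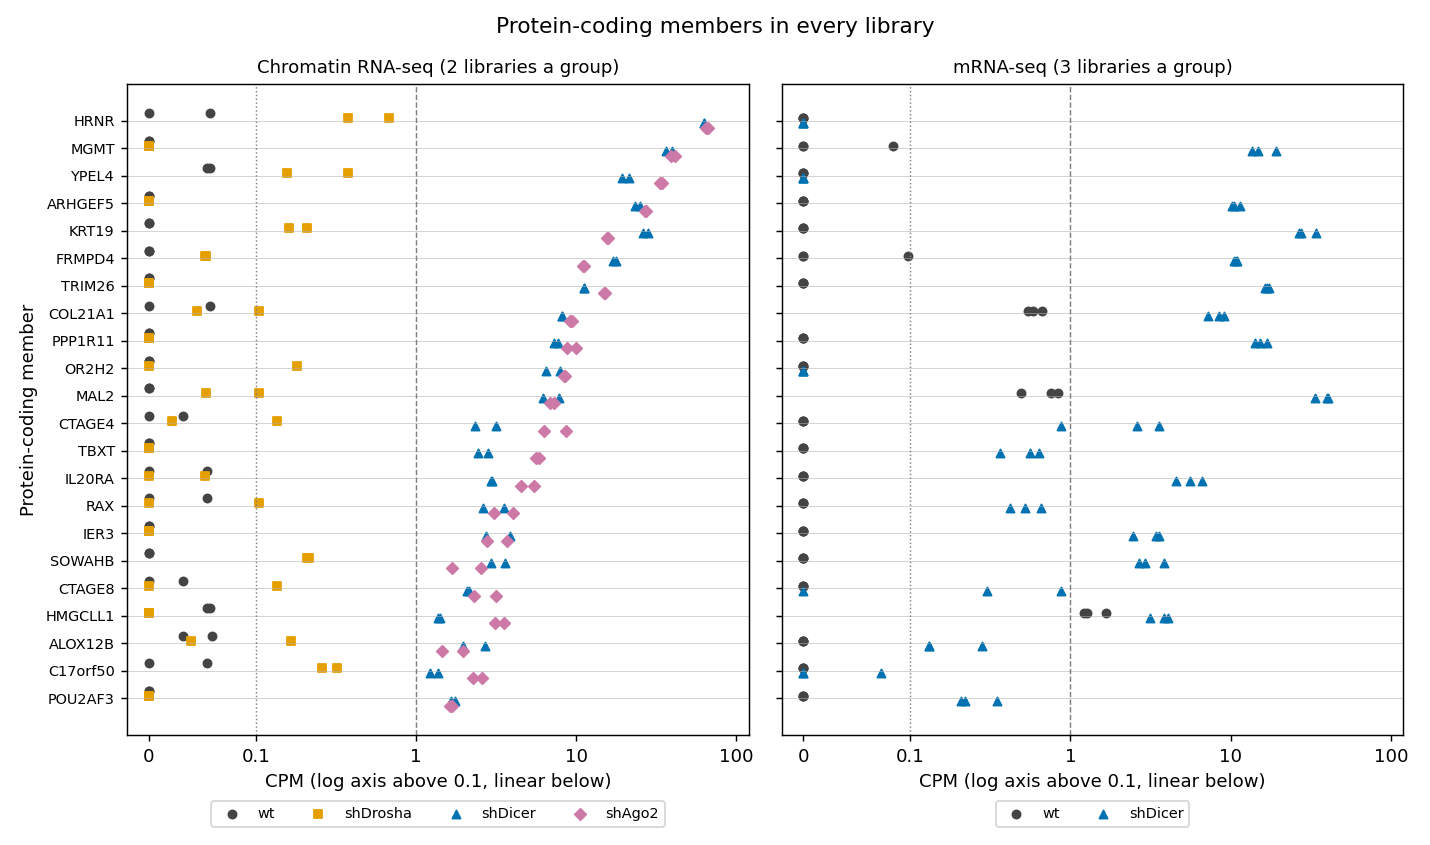
CPM of the 22 protein-coding members in each library, with 1 point per library, on an axis that is logarithmic above 0.1 CPM and linear below, with lines at 0.1 and 1 CPM. In mRNA-seq (right) HRNR, YPEL4 and OR2H2 lie at 0 in both groups, while KRT19, TRIM26, MGMT and PPP1R11 lie at 0 or near it in wt and above 10 CPM in shDicer.

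The mRNA-seq comparison used libraries that the rule did not. Of the 66 members, 58 were under 3 counts in all 3 wt mRNA-seq libraries and 18 reached 1 CPM in all 3 shDicer libraries. For 28 members all 3 shDicer libraries lay above all 3 wt libraries, where 18.1% of the 33321 genes with a count in mRNA-seq did. That share leaves out genes without a count, while the 66 members include 18 of them. For 3 members all 3 wt libraries lay above all 3 shDicer libraries, and the share of all genes in that direction was not computed. The same limits applied to mRNA-seq (below 0.1 CPM in every wt, at least 1 CPM in every shDicer library) were met by 13 members and by 59 of all genes (0.103%). By edgeR's quasi-likelihood test, 18 members rose at an adjusted p under 0.001, where 15.6% of 15090 tested genes rose. Only 19 members had enough counts to be tested, and 14 of these were under 3 counts in all 3 wt libraries, so they could enter the test through shDicer alone and the 18 of 19 carries no weight. As a share of all members the 18 are 27.3%, a base that includes 47 members not tested. The 15.6% is over tested genes only, so the 2 shares cannot be compared. Protein-coding members made up 13 of the 18, out of 22, and other biotypes 5, out of 44. The shares of all protein-coding and all other genes that rose were not computed, so this split is a description only. The level was at 0 in every mRNA-seq library for 18 members, most of them non-coding genes and pseudogenes. HMGCLL1, an enzyme related to HMG-CoA lyase, had the smallest rise (1.21, 1.26 and 1.66 CPM in wt, 3.14, 3.84 and 4.07 CPM in shDicer, log2 fold change 1.43 ± 0.24 (SE), adjusted p = 0.000415). Its call was lost without any 1 of the wt libraries and without shDicer replicate 2 or 3 (adjusted p from 0.00115 to 0.00357), and that of CTAGE4 without wt replicate 1 or 3 or shDicer replicate 2 (0.00137 to 0.00264). The call of HMGCLL1 was also lost by DESeq2 (adjusted p = 0.00217) and by edgeR with counts scaled from TPM (0.00493).

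A single member fell in mRNA-seq, where 14.2% of tested genes fell. ENSG00000274276 is annotated on chromosome 21 as an artifact that duplicates CBS, the cystathionine beta-synthase gene, and 98.7% of its 31-base subsequences are shared with CBS. It read 112, 109 and 110 CPM in wt mRNA-seq and 42.6, 30.3 and 39.3 CPM in shDicer (log2 fold change -1.56 ± 0.11 (SE), adjusted p = 7.93e-07), so it was not silent in wt mRNA. In chromatin its sum with CBS went from 463 CPM in wt to 127 CPM in shDicer and 97.6 CPM in shAgo2, opposite in direction to the member alone.

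Sharing of sequence with other genes was uneven. Of the 66 members, 43 had at most 20% of their 31-base subsequences in transcripts of another gene, 22 had none, and 18 had over 50%. For these 18 the division of reads between copies is uncertain. The sum over copies was also near 0 in wt for the pairs ARHGEF5 with ARHGEF34P (0 CPM in wt, 40.7 in shDicer, 47.0 in shAgo2) and CTAGE4 with CTAGE8 (0.0321, 4.87 and 10.2 CPM). It was not for Metazoa_SRP, whose near-identical copy of the same name read 2.83 CPM in wt and 0.00174 CPM in shDicer, so that their sum was 2.83 CPM in wt, 3.46 CPM in shDicer and 2.96 CPM in shAgo2. ENSG00000236601 and its partner summed to 2.52, 2.97 and 3.2 CPM, and TPM3P6 with TPM3P9 to 37.5, 42.5 and 44.4 CPM. RPSAP41 with KHDC1-AS1 (84.6% shared) summed to 52, 105 and 95.8 CPM. RPL29P11 with RPL29 (58.4% shared) summed to 118, 93.4 and 85 CPM, opposite in direction to the member alone. ITGB1P1 lies wholly within the sequence of ITGB1, an integrin chain that read 81.7 CPM in wt, 132 CPM in shDicer and 160 CPM in shAgo2. ENSG00000290606 shares 56.9% with the overlapping gene ENSG00000283403, and their sum was 1.54 CPM in wt, 82.2 CPM in shDicer and 72.1 CPM in shAgo2. ENSG00000261116 lies wholly within the sequence of FAM83B, and their sum was 0.339, 6.69 and 11.4 CPM.

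Members lay on 18 chromosome sequences, with 19 on chromosome 6 and 9 on chromosome 19. Among them, 30 lay within 100 kb of another member, and joining members at gaps of up to 1 Mb gave 10 runs with 39 members. The shares of all genes, or of genes silent in wt, that lie so close or on these chromosomes were not computed. Some neighbours are overlapping entries of the same locus. FRMPD4-AS1 and RPL17P49 lie inside FRMPD4, ENSG00000227374 inside MGMT and PAIP1P1 inside TRIM26. Genes of the runs that missed the rule are given as context, since the runs were drawn around members. Among all 26335 genes at 1 CPM or more in the 4 shDicer and shAgo2 libraries, 4.42% exceeded in every one of these libraries 2 times the higher wt library.

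The largest run held 12 members on the short arm of chromosome 6 (29585121 to 30926459), in the major histocompatibility complex, the region of the antigen-presenting HLA genes. TRIM26, a tripartite motif ubiquitin ligase, read 0 in wt, 11.2 and 11.1 CPM in shDicer, and 15.1 and 14.9 CPM in shAgo2, and went in mRNA-seq from 0 to 16.5, 17.0 and 17.3 CPM (at least 57.6-fold, adjusted p = 7.28e-08). PPP1R11, an inhibitor of a serine/threonine protein phosphatase, read 0 in wt, 7.25 and 7.68 CPM in shDicer, and 10.1 and 8.77 CPM in shAgo2, and 14.3, 16.9 and 15.2 CPM in shDicer mRNA-seq against 0 in wt (at least 52.7-fold, adjusted p = 1.4e-07). IER3, an immediate early response gene, read 2.74 to 3.88 CPM in the 4 libraries and 2.48, 3.56 and 3.43 CPM in shDicer mRNA-seq against 0 in wt (at least 10.7-fold, adjusted p = 1.07e-05). The pseudogenes MICD, MICE, HCG4B, HLA-W, PAIP1P1, ENSG00000227766 (3.23 CPM in shDicer and 3.85 CPM in shAgo2) and ENSG00000237669 (2.2 and 1.92 CPM) were in the same run. So was ENSG00000288473, a long non-coding RNA at 15.9 and 14.9 CPM in shDicer and 14.4 and 15.9 CPM in shAgo2, of which 66.7% is shared with VARS2. Their sum was 1.32 CPM in wt, 56.8 CPM in shDicer and 54.9 CPM in shAgo2. Of its 34 other genes at 1 CPM or more in the 4 libraries, 11 exceeded 2 times the wt level in every one. MDC1, which encodes a mediator of the DNA damage checkpoint, was one of them (2.17 and 2.81 CPM in wt, 65.3 and 90.7 CPM in shDicer, 109 and 115 CPM in shAgo2). Genes between them did not all move: HCG18 read 224 CPM in wt, 198 CPM in shDicer and 235 CPM in shAgo2, and ABCF1 67.4, 46.3 and 71.5 CPM.

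Transcript entries outside the gene annotation went the other way in this run, so the silence of these members in wt is given for the annotated entries only. The files hold 23385 transcripts that match no gene of the annotation used, and their identity is not given in the sources used here. A counter-entry was defined, after these values were seen, as such a transcript of exactly the same length as an expressed transcript of a member, at 0.5 CPM or more in both wt libraries and below a 10th of the lower wt value in all 4 shDicer and shAgo2 libraries. Of the 12 members in the run 8 had one, against 2 of the 54 elsewhere (TBXT and MEIS3P1) and 11.9% of all genes on in the 4 libraries. MICD read 0 in wt and 5.74 CPM in shDicer, and its counter-entry of 813 bases, which is 1 of 13 entries of that length outside the annotation, read 5.34 CPM in wt and 0.0824 CPM in shDicer. Equal length does not show equal sequence. HCG4B and its entry of 991 bases read 0 and 1.89 CPM in wt and 1.62 and 0 CPM in shDicer. TRIM26 transcripts of 3318 bases read 0 in wt and 2.07 CPM in shDicer, and the entry of that length 10.7 and 0.212 CPM. In mRNA-seq that entry read 4.62 CPM in wt and 0 in shDicer, and another of 1124 bases 1.12 CPM and 0, so the rise of TRIM26 from 0 holds for its annotated transcripts only. The libraries labelled shDrosha were on the wt side in all 8 (MICD entry 5.76 CPM). Among transcripts at 0.5 CPM or more in both wt libraries, 2.74% of those outside the annotation had this pattern and 0.314% of those inside. Outside the run, the TBXT entry of 1497 bases read 1.1 CPM in wt and 0 in shDicer and shAgo2 chromatin, and 1.55 CPM in wt and 0 in shDicer mRNA-seq. The 6 MEIS3P1 entries of 958 bases summed to 4.29 CPM in wt and 0.000391 CPM in shDicer chromatin, and were at 0 in mRNA-seq. OR2H2, MICE, HLA-W and PPP1R11 had no counter-entry, which covers only entries of equal length. Without the run and the members with a counter-entry, 52 members remained.

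**Figure D3:**
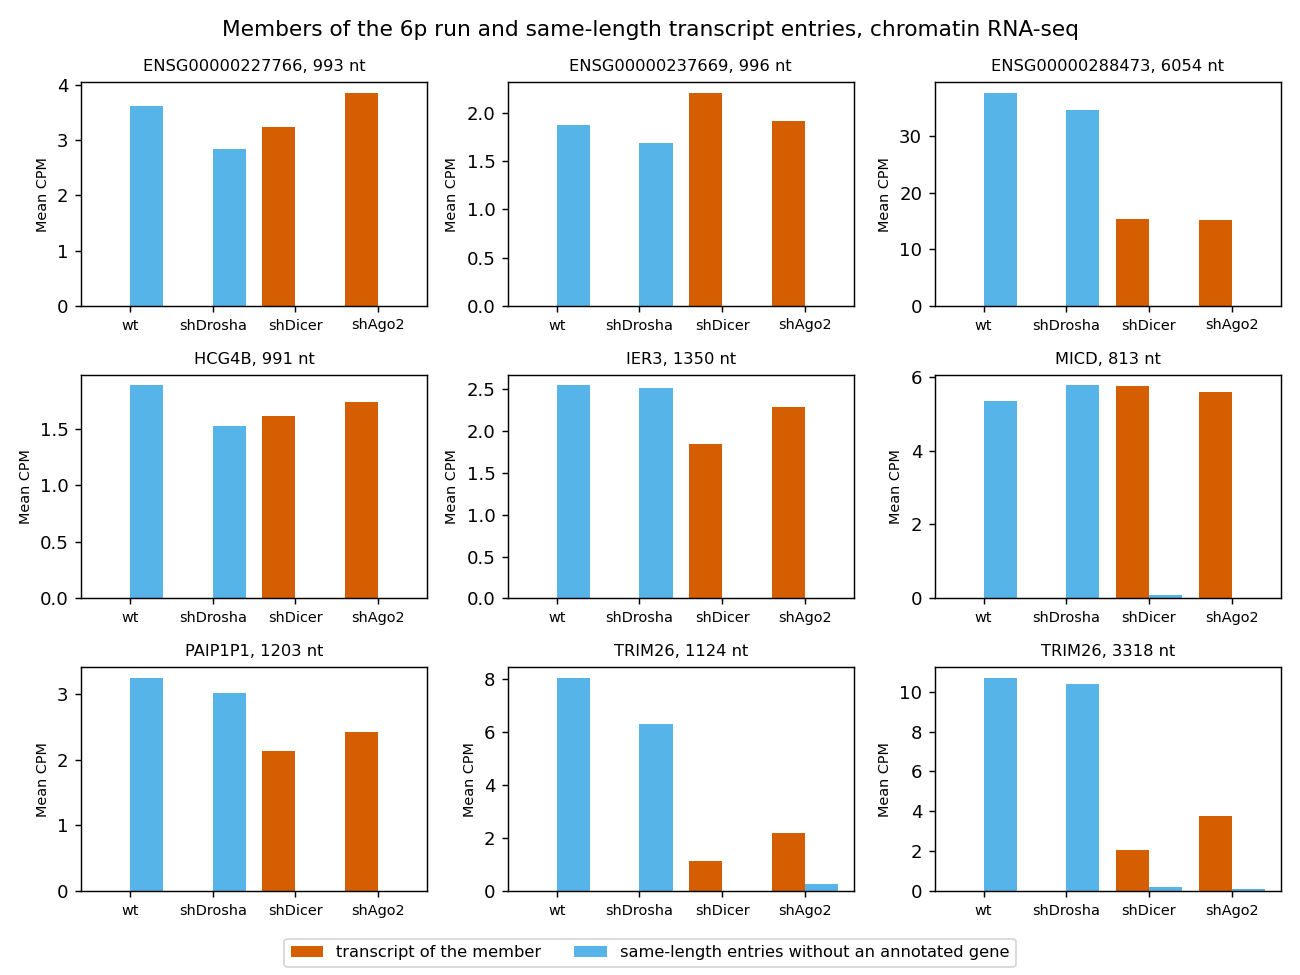
Mean CPM in the 4 chromatin groups (2 libraries each) of transcripts of members in the chromosome 6 run (orange) and of same-length entries without an annotated gene (blue), with the length in bases (nt). In each panel the blue bars stand in wt and shDrosha and the orange bars in shDicer and shAgo2, as the definition of a counter-entry required for wt, shDicer and shAgo2.

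The run on the long arm of chromosome 19 (28437060 to 28792871) held 5 members, and all 8 of its genes, each at 1 CPM or more in the 4 libraries, exceeded 2 times the wt level in every shDicer and shAgo2 library. ENSG00000290606, a long non-coding RNA, read 0 in wt, 50.9 and 53.8 CPM in shDicer, and 49.1 and 45.3 CPM in shAgo2. The overlapping pseudogene ENSG00000283269 read 0 in wt, 47.0 and 47.5 CPM in shDicer, and 43.7 and 43.9 CPM in shAgo2. In shDicer mRNA-seq these read 4.15, 5.18 and 3.48 CPM and 1.43, 2.43 and 3.18 CPM against 0 in wt (adjusted p = 7.08e-06 and 5.83e-05). ENSG00000267243, another long non-coding RNA, read 0 in wt, 12 and 12.3 CPM in shDicer, and 13 and 12.1 CPM in shAgo2, and the pseudogene MAN1A2P1 3.06 CPM in shDicer and 1.93 CPM in shAgo2 on average. ENSG00000266976, which is no member and lies opposite to the member ENSG00000267537, was higher still (14.8 CPM in wt, 216 CPM in shDicer, 175 CPM in shAgo2).

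On chromosome 7 (144183466 to 144380632) the run joined CTAGE4, CTAGE8, ENSG00000290816, ARHGEF34P and ARHGEF5. Long stretches of sequence are shared between CTAGE4 and CTAGE8 and between ARHGEF34P and ARHGEF5, while 87% of the 31-base subsequences of ENSG00000290816 are shared with ENSG00000290818, a neighbour that is no member. The sum of these last genes was 9.28 CPM in wt, 19.6 CPM in shDicer and 24 CPM in shAgo2, so it was not near 0 in wt. Of 5 other genes on in the 4 libraries, 3 exceeded 2 times the wt level in every one. On chromosome 6 farther from the HLA genes, ENSG00000261116, HMGCLL1 and COL21A1 formed a run of 3, and on chromosome X FRMPD4, FRMPD4-AS1 and RPL17P49 another. GLYATL1P2 (3.33 CPM in shDicer, 1.27 CPM in shAgo2 chromatin) and ENSG00000254877 (3.11 and 1.33 CPM) were neighbours on chromosome 11, and BNIP3P10 and ENSG00000268070 on chromosome 19.

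Levels in the libraries labelled shDrosha, which the rule did not use, were close to those of wt. Of the 66 members 34 had no count in either library, 50 were under 3 counts in both, and none reached 1 CPM in both. Across all genes, 2 were below 0.1 CPM in both wt libraries and at least 1 CPM in both libraries labelled shDrosha, where 89 were so in shDicer and 105 in shAgo2. The median log2 fold change against wt was 0 for the members and 0.0049 for all 32874 tested genes. Of the members, 33 had no count in wt or in the libraries labelled shDrosha, which gives a log2 fold change of 0. All 66 could enter the test through shDicer and shAgo2, where the rule made them high. The median of 0 and the number of calls below therefore carry no weight. By edgeR 2 members rose at an adjusted p under 0.05, where 1.19% of tested genes rose and 2.18% fell. ITGB1P1 read 5.1e-06 and 0.0034 CPM in wt and 0.934 and 2.92 CPM in the libraries labelled shDrosha (adjusted p = 0.00799), and HRNR 0 and 0.0572 against 0.679 and 0.374 CPM (adjusted p = 0.0223). All of the ITGB1P1 sequence is shared with ITGB1, so its values depend on how reads were divided. The sum of ITGB1P1 and ITGB1 was 81.7 CPM in wt and 89.9 CPM in the libraries labelled shDrosha. The rule held every member below 0.1 CPM in both wt libraries, so a fall could hardly be seen and the direction carries no weight. No member fell, and none had an unadjusted p under 0.05 in that direction, while 10 did upwards. The share of all genes at that unadjusted limit was not computed. DESeq2 called 0 in either direction, with 8 upwards and 0 downwards at an unadjusted p under 0.05. Neither call remained without wt replicate 1 or without wt replicate 2, and HRNR was also lost without shDrosha replicate 1 (adjusted p over these from 0.0717 to 0.201). The difference between the response labelled shDrosha and those of shDicer and shAgo2 was not tested, since the rule chose the latter.

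The shDicer and shAgo2 libraries were compared directly. The rule asked for at least 1 CPM in each of these 4 libraries, so it left out genes low in either group. It did not ask which group was higher. The closeness of the groups and the numbers of calls below are therefore descriptions of genes chosen on these libraries. The ratio of shDicer to shAgo2 mean CPM had a median of 0.925 over the members and ranged from 0.283 to 2.63, and it lay between 0.5 and 2 for 58 of the 66. At an adjusted p under 0.005, 1 member was higher in shDicer, where 1.37% of all tested genes were, and 5 were higher in shAgo2, where 1.34% were. The median log2 fold change was -0.12 for the members and 0.0034 for all genes tested. KRT19 was higher in shDicer (log2 fold change 0.79 ± 0.10 (SE), adjusted p = 0.00113). YPEL4 (-0.74 ± 0.10, adjusted p = 0.000958), BNIP3P10 (-1.82 ± 0.25, 0.000943) and CTAGE4 (-1.44 ± 0.26, 0.00463) were higher in shAgo2. So were ENSG00000274276 (-1.70 ± 0.13, 6.03e-05) and ENSG00000268070 (-1.48 ± 0.24, 0.00499), the last at the edge of the threshold. BNIP3P10 read 1.72 and 2.79 CPM in shDicer and 8.4 and 7.57 CPM in shAgo2, and was absent from mRNA-seq. It lies inside ZNF253, which is on the opposite strand and no member (4.1 CPM in wt, 9.56 CPM in shDicer, 24.2 CPM in shAgo2). ENSG00000268070 lies in the same way inside ZNF682 (4.71, 12.8 and 30.8 CPM). The part of these host genes in the 2 calls was not tested. These calls rested on few libraries. Without either 1 of the shAgo2 libraries, 1 member was called higher in shAgo2 and 0 in shDicer. The counts were 2 and 1 without shDicer replicate 1, 2 and 0 without shDicer replicate 2, 3 and 1 without either wt library, which enter through the shared spread, and 6 and 2 without shDrosha replicate 2.

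**Figure D4:**
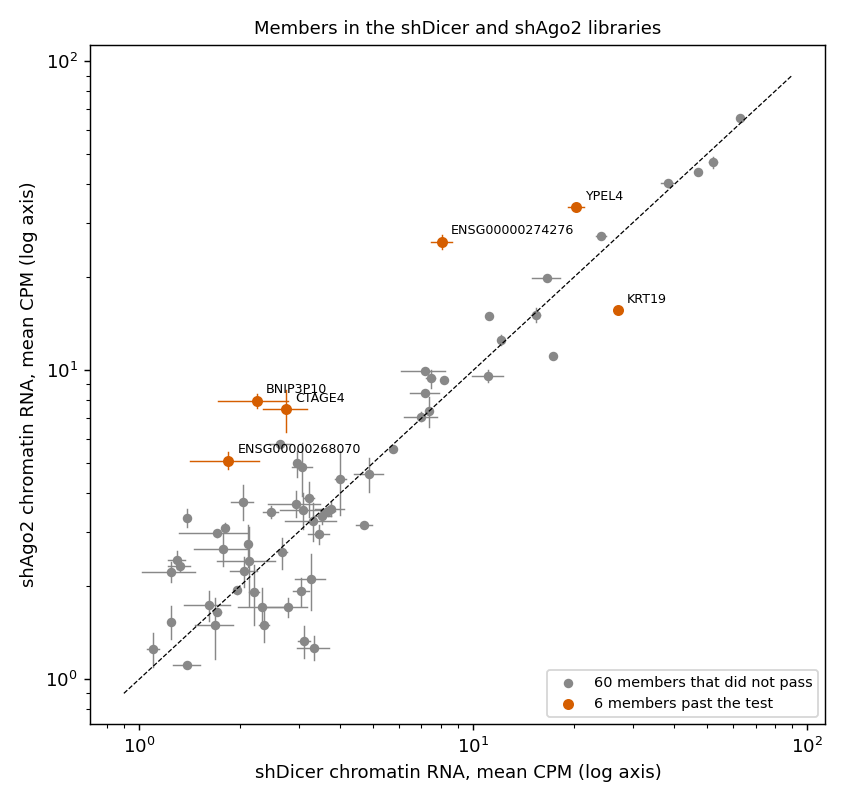
Mean CPM of each member in shAgo2 (vertical, log axis) against shDicer (horizontal, log axis) chromatin libraries, with lines from the lower to the higher of the 2 libraries of each group and equality dashed. Orange points mark the 6 members past the direct test, of which KRT19 alone lies below the line of equality.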

How the data were processed

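The series measured chromatin-associated RNA (8 libraries) and mRNA (6 libraries) of HEK293 lines, and the small RNA libraries were not analysed here. The authors quantified reads with kallisto, in its stranded mode, against Ensembl cDNA and ncRNA sequences (per the study's methods), and deposited estimated counts and TPM per transcript without pooling libraries. The labels call the mRNA-seq polyA RNA, while the methods name a ribosome-depleted total RNA kit. Transcripts (217082) were assigned to genes through GENCODE 44 (GRCh38), which matched 193697 of them (89.2%) to 57087 genes. CPM was a gene's summed estimated count over the library total, unmatched transcripts included, in units of 1e+06. Estimated counts were rounded and tested with edgeR 4.0.16 (TMM scaling, its filter on low counts, quasi-likelihood test, Benjamini-Hochberg over all genes), with DESeq2 1.42.0 as an alternative. Chromatin groups shared 1 fit of 8 libraries. Thresholds on the adjusted p were 0.001 for mRNA-seq, 0.05 for shDrosha against wt and 0.005 for shDicer against shAgo2. A fold written as "at least" is taken against 3 counts in the shallowest wt library, covers counting error only, and for levels of the rule's own libraries is a description. The script was tested on simulated data.

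No test was made of shDicer or shAgo2 against wt in chromatin, because the rule used that contrast. The members and lists were chosen with earlier results of these data known. Genes were named by a fixed rule: the 12 protein-coding and 8 other members highest in the knockdown libraries, the 5 called members with the largest rise and fall in mRNA-seq, up to 6 called for shDrosha, the 3 most in favour of each side in the direct comparison, members of the gene lists, members within 100 kb of another, and 3 genes on each side of both limits. Other members (TBXT, RAX, MEIS3P1, POU2AF3, ALOX12B, SOWAHB, HMGCLL1, ENSG00000261116, CTAGE4 and ENSG00000268070 in their tests, and those with shared sequence), flanking genes and copies were added after their values were seen. Sharing of sequence was the share of 31-base subsequences found in transcripts of other genes. Alternatives tried were other limits of the rule, TPM in place of CPM, other scalings, no filter, a replicate block, each library left out, and a fold threshold. All value columns of the files belonged to a single sample. A flanking gene of the chromosome 6 run is not reported here.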

Additional observations from a re-analysis of the deposited data

Results flagged for a closer look

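The response of 6 members differed between shDicer and shAgo2 chromatin in the direct edgeR test, which flagged them. The log2 fold change of shDicer against shAgo2 was -1.82 for BNIP3P10, -1.70 for ENSG00000274276, -1.48 for ENSG00000268070, -1.44 for CTAGE4, -0.74 for YPEL4 and 0.79 for KRT19. CTAGE4 and ENSG00000274276 share nearly all of their sequence with other genes, so their values depend on how reads were divided between copies. No group held 4 or more libraries, so no library was examined for standing apart from its group.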

How the results depend on the processing

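The number of genes meeting the rule was 66 and stayed within 1.5 times under both other wt limits, TMM-scaled and DESeq2-scaled CPM, and with any 1 library left out (69 to 90). It was 123 at a knockdown limit of 0.5 CPM and 39 at 2 CPM, 137 from gene sums of TPM (45 of the members among them), and 152 with transcripts without a gene kept as features, 86 of which met the rule. Of the members 43 had at least 80% unique 31-base subsequences. The 18 rises in mRNA-seq stayed at 16 to 18 with any 1 library left out, and the 1 fall became 2 without the filter on low counts. The 2 rises in the libraries labelled shDrosha became 0 by DESeq2, 1 with counts scaled from TPM, 1 with only the 2 groups compared, and 0 to 2 with any 1 library left out. The 1 member higher in shDicer than shAgo2 became 0 with counts scaled from TPM, 3 without the filter, 0 with an absolute log2 fold change above 1 required, and 0 to 2 with a library left out. The 5 higher in shAgo2 became 3 by DESeq2, 2 with counts scaled from TPM, 3 with library size only, and 1 to 6 with a library left out. No log2 fold change of the members called in the 3 tests turned its direction under any of these alternatives, which were not run for the genes that are no members. Of 228 such values in mRNA-seq 10 lost their call, of 30 for shDrosha 8, and of 96 for shDicer against shAgo2 31. Except where fewer samples or genes were tested, the cause was not tested.

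Replicate numbers did not pair the samples: in mRNA-seq the correlations of same-numbered libraries were 0.051, 0.031 and 0.209, and not every library went best with its own number. With the replicate block the counts were 1 for rises in the libraries labelled shDrosha, 1 for shDicer and 3 for shAgo2 in the direct comparison, with the mRNA-seq counts at 18 and 1. In chromatin, shDrosha correlated with wt at -0.22, and with its numbers crossed (chosen after seeing the data) the block gave 4 rises for shDrosha, 2 for shDicer and 6 for shAgo2.

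Depth limits the low end: 0.1 CPM was 1.75 to 1.82 counts in the wt chromatin libraries, so a gene that is low and a gene that is off look alike there.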
